A study of Mus musculus with 6 samples.

Results

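Myeloid lineage transcription factors are described here by the transcript levels of 9 genes, Spi1, Cebpa, Cebpb, Cebpd, Maf, Lyl1, Runx1, Runx3 and Ikzf1, in mouse bone-marrow-derived macrophages (BMDMs). The genes were taken by symbol from the 54532 genes listed, by their known roles and with earlier results of these data known. All 9 were listed, and all 9 passed the filter on low values with 12755 genes in all, although Runx3 passed it only through its level after metformin and LPS.

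Macrophages arise from haematopoietic stem cells in steps that are set by a small number of transcription factors. PU.1, the product of Spi1, works with C/EBPα and RUNX1 to open the regulatory regions of myeloid genes, whereas C/EBPβ and C/EBPδ are the members of the C/EBP family best known for acting in inflammation and emergency granulopoiesis. MAF, LYL1 and IKAROS, the product of Ikzf1, are used in the macrophage, the haematopoietic progenitor and the lymphoid branches, and several of these factors are transcribed throughout the life of a macrophage.

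The study asked how metformin, a drug given in type-2 diabetes, alters the early response of macrophages to LPS, a glycolipid of Gram-negative bacteria that is sensed through TLR4. RNA-seq was performed on BMDMs of wildtype C57BL/6 mice, which had been grown from marrow in medium conditioned by L929 cells, and the ages of the mice are not given in the sources used here. The untreated group received neither agent, the LPS group received 100 ng/ml LPS for 2 h, and the Met + LPS group was first given metformin (5 mM, 6 h) and afterwards the LPS treatment. Each group has 2 libraries, A and B, from cells seeded in duplicate, so that p-values measure the spread between these cultures, which may be technical. There was no group with metformin alone.

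The authors deposited the values as TPM, which correct for gene length and have a common total, so that levels of different genes can be compared. The libraries held between 25457016 and 30762754 reads on genes, as recovered from the TPM values. Fold changes are differences of log2(TPM + 1), tested with limma over all 12755 genes with Benjamini-Hochberg adjustment, and a gene passed the test at an adjusted p under 0.01. The log2 fold change of the median tested gene was -0.48 in LPS vs. untreated, -0.03 in Met + LPS vs. LPS and -0.48 in Met + LPS vs. untreated. Changes from untreated are therefore also given relative to that median. An exact permutation test (two-sided) of 2 libraries against 2 cannot give a p below 0.333, so each call rests on the spread that limma pools over genes. All 9 macrophage markers, among them Adgre1, Csf1r and Cd68, were measured in every library.

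The sequences upstream of the start sites are shown for 4 of the members, the pair that fell most after LPS and 2 whose transcripts rose. RefSeq windows matched 6 of the 9 members with 9 start sites. The members without a match were Spi1, Cebpd and Maf. Each sequence is the 250 bases before a RefSeq start on GRCm38.p6, plus strand, 5′ to 3′, in lower case, and capitals mark GAGGAA, the core letters bound by PU.1, in the Lyl1 window and the TATA box TATAAA in the Cebpa window. The windows lie at chr8:84701207-84701456 for Lyl1, chr7:35119043-35119292 for Cebpa, chr11:11685675-11685924 for Ikzf1 and chr2:167688665-167688914 for Cebpb.
Lyl1: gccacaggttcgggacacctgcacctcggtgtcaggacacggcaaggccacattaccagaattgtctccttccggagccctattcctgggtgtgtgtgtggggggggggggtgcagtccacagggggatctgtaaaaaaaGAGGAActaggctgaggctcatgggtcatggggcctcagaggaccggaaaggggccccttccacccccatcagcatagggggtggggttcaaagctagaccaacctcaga
Cebpa: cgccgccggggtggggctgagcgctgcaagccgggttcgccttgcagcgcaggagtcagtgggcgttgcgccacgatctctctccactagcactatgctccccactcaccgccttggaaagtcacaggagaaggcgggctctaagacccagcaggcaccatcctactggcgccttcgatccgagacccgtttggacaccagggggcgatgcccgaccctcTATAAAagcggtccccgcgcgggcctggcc
Ikzf1: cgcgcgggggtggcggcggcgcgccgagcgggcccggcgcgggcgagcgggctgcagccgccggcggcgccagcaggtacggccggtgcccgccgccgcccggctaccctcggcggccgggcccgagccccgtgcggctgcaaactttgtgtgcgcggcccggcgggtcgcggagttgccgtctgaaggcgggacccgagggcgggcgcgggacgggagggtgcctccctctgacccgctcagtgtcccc
Cebpb: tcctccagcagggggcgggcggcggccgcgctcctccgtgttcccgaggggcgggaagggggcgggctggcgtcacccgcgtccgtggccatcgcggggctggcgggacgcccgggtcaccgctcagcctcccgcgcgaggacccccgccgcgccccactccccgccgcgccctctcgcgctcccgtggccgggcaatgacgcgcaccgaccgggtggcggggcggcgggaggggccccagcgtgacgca

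These windows differed in base composition. The Cebpb and Ikzf1 windows shown had 81.6% and 82% G and C, against 66.4% for Cebpa, 60% for Lyl1 and a median of 52.4% over all 32851 mouse windows of this length. Another Ikzf1 window, which is not shown, had 47.6%, so for Ikzf1 the composition depends on the start site taken. The TATA box of Cebpa lay at positions -30 to -25 from the RefSeq start, and TATAAA or its complement was present in 12.4% of all windows. GAGGAA was found on either strand in 1 window each of Lyl1, at positions -110 to -105, and of Runx1, and in 23.3% of all windows. The RUNX letters TGTGGT occurred in 1 window of Runx3 and in 14.0% of all windows. E-boxes, written CANNTG and bound by basic helix-loop-helix factors such as LYL1, were in windows of Lyl1, Runx1 and Runx3, and 66.2% of all windows hold at least 1. The C/EBP letters TTGCNNAA, the AP-1 letters TGANTCA, the cyclic AMP element TGACGTCA and the kappaB motif were in none of the 9 windows, and were in 9.56%, 6.75%, 1.55% and 7.25% of all windows.

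In untreated BMDMs Spi1 had the highest mean level of the 9 genes and Runx3 the lowest. The order below Spi1 was Lyl1, Cebpa, Maf, Ikzf1, Cebpb, Runx1, Cebpd and Runx3, and in that order Cebpa and Maf were the only neighbours whose libraries overlapped. After LPS it was Spi1, Ikzf1, Cebpb, Maf, Cebpd, Runx1, Cebpa, Lyl1 and Runx3, with overlap between Cebpb and Maf alone. Cebpa and Lyl1 had thus moved from places 3 and 2 to places 7 and 8. In Met + LPS the order was Spi1, Ikzf1, Cebpb, Maf, Cebpa, Runx1, Cebpd, Lyl1 and Runx3, and the libraries of Runx1 and Cebpd overlapped. The 9 genes together held 974 TPM in untreated BMDMs, 1006 TPM after LPS and 678 TPM in Met + LPS. These sums are of TPM as deposited, and differences between them depend on how libraries are scaled to each other.

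**Figure D1:**
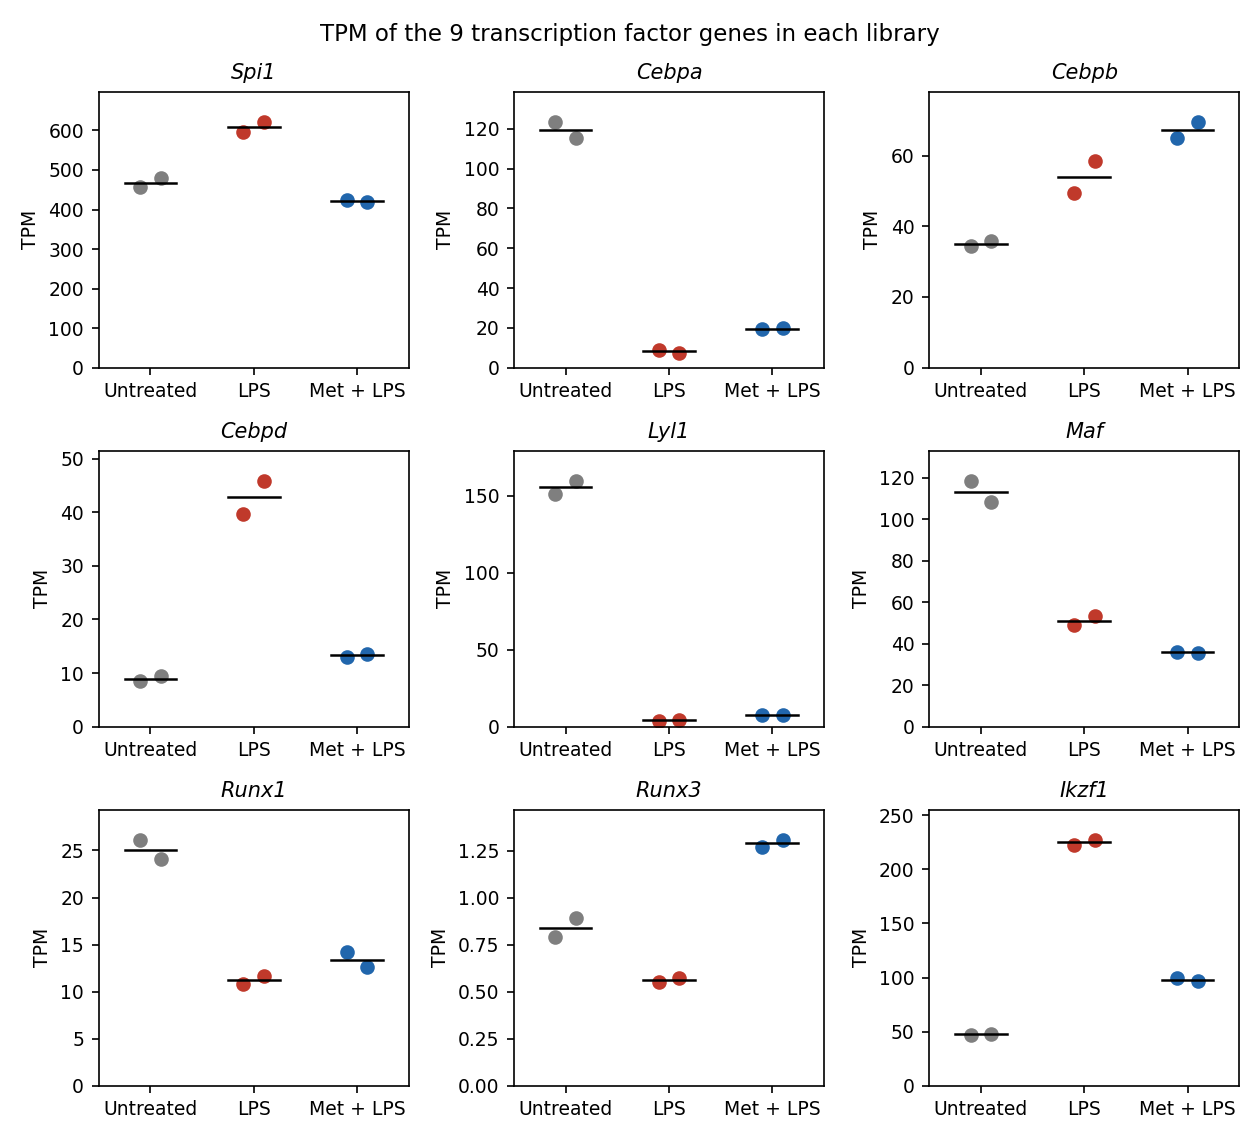
TPM of each of the 9 genes (vertical axes, each from 0) in the untreated, LPS and Met + LPS libraries. Points are libraries, A on the left and B on the right, and bars are group means (n = 2). Cebpa and Lyl1 are near the bottom of their axes in all 4 LPS-stimulated libraries, and Cebpd and Ikzf1 peak in the LPS libraries.

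LPS moved 8 of the 9 genes past an adjusted p of 0.01, 4 upwards and 4 downwards. Spi1, Cebpb, Cebpd and Ikzf1 were higher, Cebpa, Lyl1, Maf and Runx1 were lower, and Runx3 did not pass. Over all tested genes 16.2% passed as higher and 60.1% as lower, so that passing as lower was the common outcome on this scale. When the change also had to reach a log2 fold change of 2 in either direction, Cebpd and Ikzf1 remained among the higher and Cebpa and Lyl1 among the lower, 2 of 9 each, against 3.72% and 2.37% of all tested genes.

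Metformin before LPS moved 6 of the 9 genes relative to LPS alone, 2 upwards and 4 downwards. Cebpa and Lyl1 were higher, and Spi1, Cebpd, Ikzf1 and Maf were lower. Among all tested genes 14.5% passed as higher and 18% as lower. With a change of 0.7 or more on the log2 scale as a further condition, Cebpa and Lyl1 stayed among the higher and Cebpd and Ikzf1 among the lower, again 2 of 9 each, against 4.19% and 4.09% of all tested genes. Relative to untreated BMDMs, Met + LPS had 3 members higher (Cebpb, Cebpd, Ikzf1) and 5 lower (Spi1, Cebpa, Maf, Lyl1, Runx1), where 16.3% and 58.8% of all tested genes passed in these directions. Past an absolute log2 fold change of 2 none of the 9 was higher and 2, Cebpa and Lyl1, were lower, where 3.18% and 2.16% of all tested genes were. Relative to the median gene, the log2 fold changes of Met + LPS vs. untreated were -3.73 for Lyl1, -2.07 for Cebpa, -1.15 for Maf and -0.38 for Runx1, and 0.33 for Spi1, 0.79 for Runx3, 1.0 for Cebpd, 1.4 for Cebpb and 1.5 for Ikzf1, so that Spi1 was below 0 as deposited and above the median gene. The comparisons share their LPS or their untreated libraries and are given side by side for each gene.

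**Figure D2:**
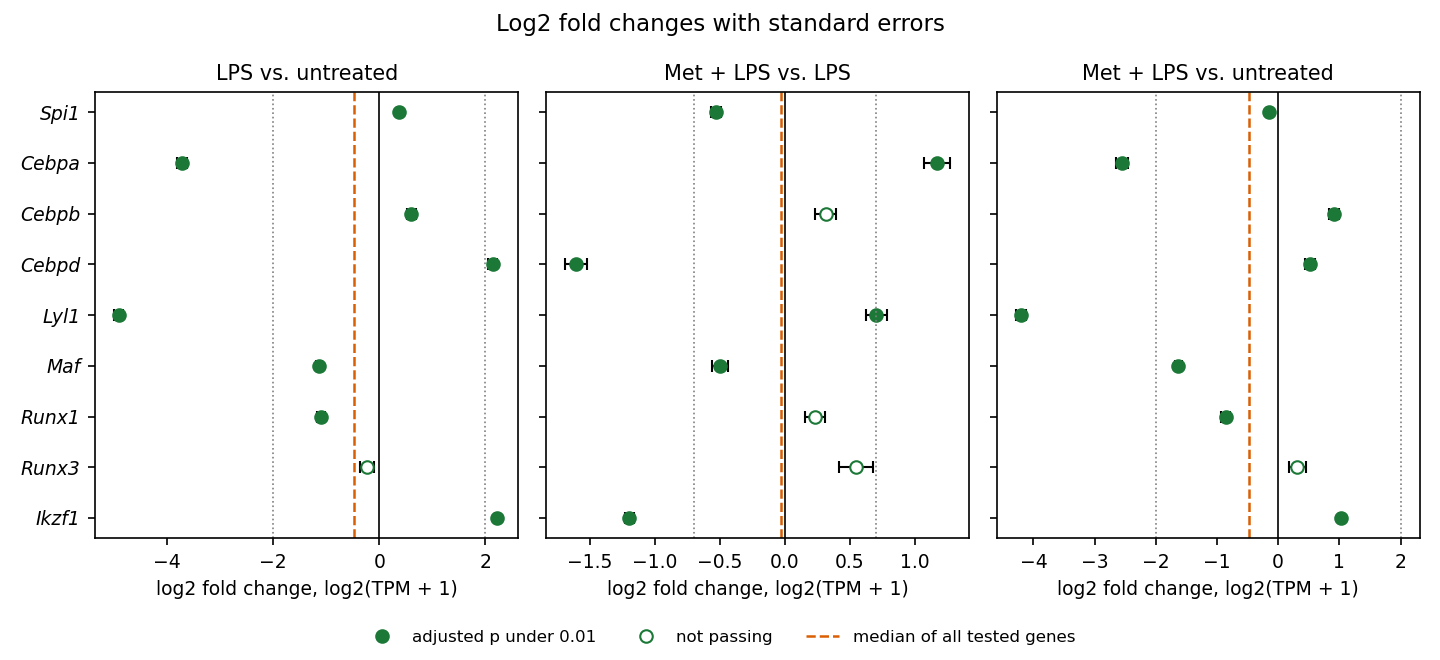
Log2 fold changes on the log2(TPM + 1) scale (horizontal axes, a separate range in each panel) of the 9 genes in the 3 comparisons, with standard errors from limma as bars. Filled points have an adjusted p under 0.01, dotted lines are the fold-change cut-offs and dashed lines the median of all tested genes. Cebpa and Lyl1 lie beyond the lower cut-off in LPS vs. untreated and at or beyond the upper one in Met + LPS vs. LPS.

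Spi1 encodes PU.1, the ETS factor on which macrophage identity depends. It is located on chromosome 2, 91082390 to 91115756, plus strand (gene positions are those of GRCm38). Spi1 was at 456 and 479 TPM in untreated libraries A and B, 596 and 622 TPM after LPS, and 424 and 420 TPM in Met + LPS. The groups did not overlap, and the LPS libraries were highest. The log2 fold change was 0.38 (SE 0.04, adjusted p = 9.1e-05) in LPS vs. untreated, which is 0.86 above the median gene, and -0.53 (SE 0.04, adjusted p = 1.0e-04) in Met + LPS vs. LPS. Met + LPS vs. untreated gave -0.15 (adjusted p = 0.0093), and this small difference depended on the scaling: it was 0.39 once libraries were rescaled so that the median gene did not change. Its adjusted p also rose to between 0.0151 and 0.0662 when untreated A, untreated B, Met + LPS A or Met + LPS B was left out. By level Spi1 stood between percentiles 97.5 and 98.3 of the tested genes in the 3 groups.

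Cebpa encodes C/EBPα, which is required for the step to granulocyte and macrophage progenitors and restrains proliferation. The gene has 1 exon on chromosome 7, 35119293 to 35121928. Its level was 124 and 115 TPM in untreated BMDMs, 9.12 and 7.23 TPM after LPS, and 19.2 and 19.9 TPM in Met + LPS. Every LPS-stimulated library was far below both untreated libraries, and the Met + LPS libraries lay above the LPS libraries. Cebpa fell by 3.72 on the log2 scale after LPS (SE 0.10, adjusted p = 2.3e-07), a mean level 14.6 times lower, which ranked 19th from the lowest of the 12755 tested genes. Relative to the median gene its log2 fold change was -3.24. Metformin raised Cebpa by a log2 fold change of 1.17 over LPS alone (SE 0.10, adjusted p = 1.8e-04), a mean 2.4 times higher, and Met + LPS remained 6.1 times lower than untreated (log2 fold change -2.55, adjusted p = 1.3e-06). Behind these levels stood 2173 to 2477 reads per untreated library, 139 to 183 per LPS library and 383 to 465 per Met + LPS library.

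Cebpb encodes C/EBPβ, a basic leucine zipper factor that takes part in the transcription of Il6, Il1b and other inflammatory genes. It has 1 exon on chromosome 2, 167688915 to 167690418, of which 312 bases (20.7%) are also exon of Tmem189 on the other strand. Cebpb was at 34.4 and 35.8 TPM in untreated BMDMs, 49.4 and 58.6 TPM after LPS, and 64.9 and 69.6 TPM in Met + LPS. The 3 groups did not overlap, and unlike Spi1, Cebpd and Ikzf1, which peaked after LPS alone, Cebpb was highest in Met + LPS. LPS raised it by a log2 fold change of 0.60 (SE 0.08, adjusted p = 4.4e-04), or 1.08 above the median gene. The log2 fold change of 0.32 between Met + LPS and LPS (SE 0.08) did not pass (adjusted p = 0.0193), although it did without LPS library B (0.44, adjusted p = 0.00564). Met + LPS exceeded untreated by 0.92 (SE 0.08, adjusted p = 5.3e-05). Tmem189 went the other way after LPS, from 259 and 261 TPM in untreated libraries to 76.5 and 78.4 TPM, and it was at 126 and 128 TPM in Met + LPS. Whether reads were counted by strand is not given in the sources used here, and without strand the reads of the shared stretch cannot be told apart. Its part in the level of Cebpb was not tested.

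Cebpd encodes C/EBPδ, an acute-phase member of the family that is transcribed at low level until a stimulus arrives. The gene is on chromosome 16, 15887286 to 15891031. It stood at 8.53 and 9.39 TPM in untreated BMDMs, 39.7 and 45.9 TPM after LPS, and 13.1 and 13.6 TPM in Met + LPS. The LPS libraries were well above all others, and Met + LPS remained above untreated. The increase after LPS was a log2 fold change of 2.13 (SE 0.08, adjusted p = 1.3e-06), with a mean 4.77 times higher and 2.61 above the median gene. Metformin lowered it by 1.61 on the log2 scale relative to LPS (SE 0.08, adjusted p = 3.1e-05), the 38th largest decrease of the 12755 tested genes. The difference from untreated that was left, 0.53 (SE 0.08, adjusted p = 8.9e-04), did not pass without untreated library A (0.47, adjusted p = 0.0126). Of the exon bases of Cebpd, 562 (15%) are also exon of Spidr on the other strand, which was at 6.52 to 9.61 TPM over the 6 libraries, with the LPS libraries lowest.

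The C/EBP proteins bind the same DNA letters as dimers with each other, and the 3 genes changed places within each library. Cebpa made up 74.2% and 71.8% of their summed TPM in untreated libraries A and B, 9.29% and 6.47% after LPS, and 19.8% and 19.3% in Met + LPS. The share of Cebpb was 20.6% and 22.4%, 50.3% and 52.4%, and 66.8% and 67.5% in the same order, and that of Cebpd 5.12% and 5.86%, 40.4% and 41.1%, and 13.4% and 13.2%. Cebpa was thus the most abundant of the 3 only in the untreated libraries, and in the 4 stimulated ones it was Cebpb. In LPS libraries Cebpd exceeded Cebpa 4.35- and 6.35-fold, whereas in Met + LPS libraries Cebpa exceeded Cebpd 1.47- and 1.46-fold. These ratios within a library do not depend on how libraries are scaled to each other, and no test was run on them. The sum of the 3 genes had group means of 163, 105 and 100.2 TPM as deposited. Unlike the ratios, this sum depends on the scaling. Rescaling by the median gene divides the untreated libraries by 1.29 and the others by 0.887 to 0.898.

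**Figure D3:**
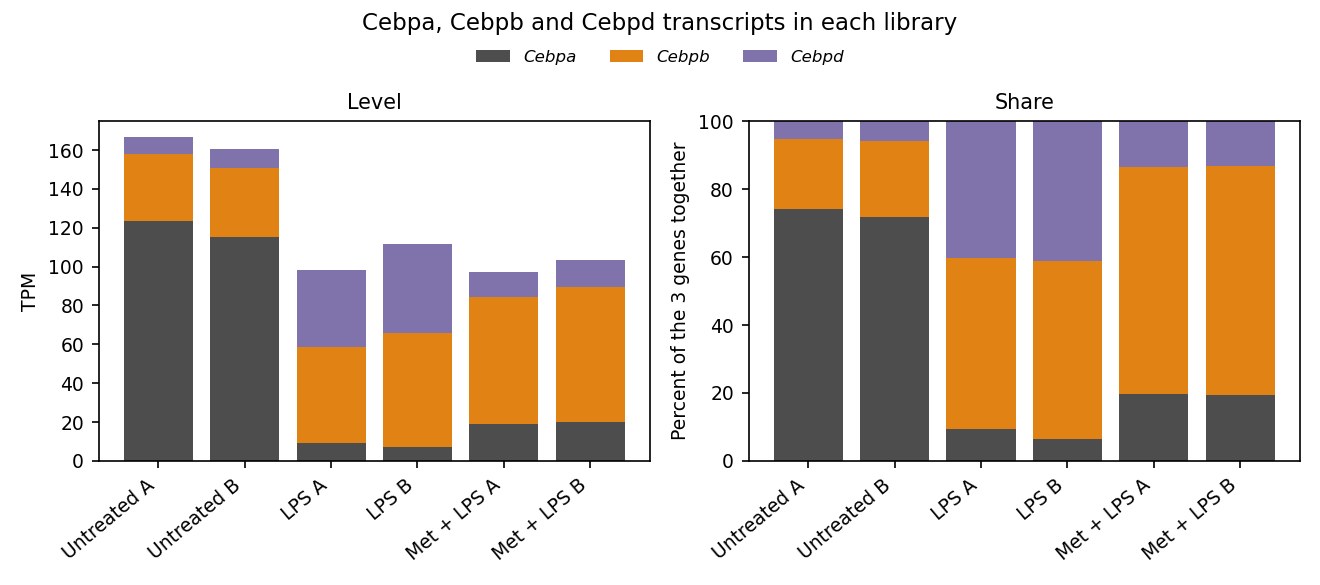
Levels (left, TPM) and shares of the summed level (right, percent) of Cebpa, Cebpb and Cebpd in each of the 6 libraries. Cebpa makes up over 70% in untreated libraries and under 20% in the others, and the Cebpd share is about 40% in the LPS libraries and 13% in the Met + LPS libraries.

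Lyl1 encodes a basic helix-loop-helix factor of haematopoietic stem and progenitor cells that is closely related to TAL1. It lies on chromosome 8, 84701457 to 84704715, plus strand. Lyl1 was at 151 and 160 TPM in untreated BMDMs, 3.8 and 4.64 TPM after LPS, and 7.64 and 7.34 TPM in Met + LPS. No libraries of different groups overlapped, and the untreated level was the second highest of the 9 genes. Its log2 fold change of -4.91 after LPS (SE 0.08, adjusted p = 3.4e-08) was the third lowest of all tested genes, with a mean 36.9 times lower and -4.43 relative to the median gene. Metformin before LPS raised it by 0.71 (SE 0.08, adjusted p = 7.8e-04), at the edge of the cut-off of 0.7, and without LPS library A or Met + LPS library A the value was 0.59 or 0.68. Met + LPS was still 20.8 times below untreated (log2 fold change -4.20, adjusted p = 8.3e-08). The LPS libraries held 52 and 61 reads of Lyl1 and the Met + LPS libraries 104 and 117.

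Maf encodes c-MAF, a basic leucine zipper factor that restrains self-renewal of macrophages and drives Il10 transcription. It is located on chromosome 8, 115682942 to 115707794, minus strand. Maf was at 119 and 108 TPM in untreated BMDMs, 48.9 and 53.4 TPM after LPS, and 36.1 and 35.7 TPM in Met + LPS. The groups were separate and descended in this order, so that metformin and LPS moved Maf the same way. Maf fell by 1.13 on the log2 scale after LPS (SE 0.06, adjusted p = 5.4e-06), which is -0.65 relative to the median gene. Met + LPS was lower than LPS by a log2 fold change of -0.50 (SE 0.06, adjusted p = 9.1e-04) and lower than untreated by -1.63 (SE 0.06, adjusted p = 1.2e-06). The antisense gene Gm15655, which shares 440 exon bases with Maf, was listed at 0 in all 6 libraries.

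Runx1 and Runx3 encode DNA-binding subunits of core-binding factor, and RUNX1 is needed for the first haematopoietic stem cells and for transcription of Spi1 itself. Runx1 lies on chromosome 16, 92601466 to 92826149, minus strand, and Runx3 on chromosome 4, 135120652 to 135177990, plus strand. Runx1 was at 26.2 and 24.0 TPM in untreated BMDMs, 10.8 and 11.6 TPM after LPS, and 14.2 and 12.6 TPM in Met + LPS. Untreated libraries were highest, and the Met + LPS libraries were only slightly above the LPS libraries. The log2 fold change after LPS was -1.10 (SE 0.08, adjusted p = 1.7e-05), or -0.62 relative to the median gene. The difference of 0.24 between Met + LPS and LPS (SE 0.08) did not pass (adjusted p = 0.042), while Met + LPS was below untreated by -0.86 (SE 0.08, adjusted p = 5.2e-05).

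Runx3, a factor of lymphocytes and of some tissue macrophages, was near the limit of the filter. It was at 0.789 and 0.893 TPM in untreated BMDMs, 0.551 and 0.575 TPM after LPS, and 1.27 and 1.31 TPM in Met + LPS, from 21 to 58 reads per library. The Met + LPS libraries were highest and the LPS libraries lowest, without overlap. None of its log2 fold changes passed, with -0.24 (SE 0.13, adjusted p = 0.142) in LPS vs. untreated, 0.55 (SE 0.13, adjusted p = 0.0149) in Met + LPS vs. LPS and 0.32 (SE 0.13, adjusted p = 0.0638) in Met + LPS vs. untreated. The log2(TPM + 1) scale shrinks changes of a gene at this level. With voom on the recovered reads, an alternative chosen after seeing the data, Met + LPS vs. LPS gave 1.18 (adjusted p = 7.1e-04). Runx3 passed the filter only through its Met + LPS libraries, which favours a higher value there, so this call is no evidence of an increase. The ratio of Runx1 to Runx3 was 33.2 and 26.9 in untreated, 19.6 and 20.2 in LPS, and 11.2 and 9.64 in Met + LPS libraries.

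Ikzf1 encodes IKAROS, a zinc finger factor best known from lymphoid development, which in macrophages also binds inflammatory genes. It lies on chromosome 11, 11685003 to 11772926, plus strand. Ikzf1 was at 47.1 and 47.8 TPM in untreated BMDMs, 222 and 228 TPM after LPS, and 99.1 and 96.3 TPM in Met + LPS. Replicates lay close together, and Met + LPS stood between the other groups. LPS raised Ikzf1 by a log2 fold change of 2.22 (SE 0.03, adjusted p = 2.3e-08), a mean 4.74 times higher and 2.70 above the median gene. It was then second to Spi1 among the 9 genes. Metformin lowered it by 1.19 on the log2 scale (SE 0.03, adjusted p = 7.3e-06), and Met + LPS stayed above untreated by 1.03 (SE 0.03, adjusted p = 7.7e-07).

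The part of each LPS change that was left in Met + LPS differed between members. It was computed on log2(TPM + 1) values and is not the share of the change in TPM. The difference of Met + LPS from untreated was taken in percent of the difference of LPS from untreated. A value of 100% means no difference between Met + LPS and LPS. The values were 24.7% ± 1.89 (SD, n = 2) for Cebpd, 46.2% ± 1.31 for Ikzf1, 68.5% ± 0.947 for Cebpa, 78.4% ± 9.91 for Runx1 and 85.6% ± 0.732 for Lyl1. For Maf and Cebpb, which moved further in Met + LPS, they were 144% ± 1.02 and 152% ± 11.7. These SDs reflect the 2 Met + LPS libraries alone. After rescaling by the median gene the values were 38.8% for Cebpd, 56.9% for Ikzf1, 62.8% for Cebpa, 57.9% for Runx1 and 83.4% for Lyl1, so that Runx1 and Cebpa changed places, as did Maf (179%) and Cebpb (129.6%).

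Of 39 further genes of the same families or of partners of RUNX and LYL1 proteins, 29 passed the filter, and 10 of these were higher and 15 lower after LPS, against 16.2% and 60.1% of all tested genes. The lower ones include Mafa (1.06 and 1.22 TPM untreated, 0.20 to 0.29 TPM in the other libraries). It passed the filter only through the untreated libraries, which selects genes that fell. The median log2 fold change of the 29 genes was -0.56, against -0.48 over all tested genes. After rescaling by the median gene the counts were 13 higher and 11 lower, against 30.6% and 27.6% of all tested genes on that scale. Past the cut-off of 2 were Maff, a small MAF protein without an activation domain (2.93 to 66.6 TPM in the means, log2 fold change 4.11), and the ETS factor Ets2 (18.5 to 77.9 TPM, 2.02). The ETS factor Fli1 was also past the cut-off, with a lower level (81.2 to 16 TPM, -2.27, but -1.76 after rescaling). Rescaling also brought Etv3 (1.70 as deposited, 2.22 rescaled), Etv6 (1.54 and 2.05) and Mafk (1.51 and 2.02) past the upper cut-off. Within the MAF family Maf and Mafg (-1.50) therefore fell while Maff and Mafk rose.

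In Met + LPS vs. LPS the same 29 genes had 10 higher and 6 lower (14.5% and 18% over all tested genes), with a median of 0.03 against -0.03 over all tested genes. The 6 past the cut-off of 0.7 upwards were Ddit3 (13.3 to 50.9 TPM, 1.86), Mafg (1.23), Cebpg (18 to 42.9 TPM, 1.21), Id2 (0.80), Ets2 (0.72) and Id3 (0.71). Ddit3 encodes CHOP, a C/EBP protein of the integrated stress response that dimerizes with the other C/EBP proteins, and Cebpg encodes another family member that lacks a strong activation domain. Both had fallen after LPS, with log2 fold changes of -1.71 and -1.23. Id2 and Id3 encode inhibitors that sequester the E-protein partners of LYL1. Etv3 (277 to 101 TPM, -1.45), Etv6 (-0.98) and Tcf4 (-0.72) were lower past the cut-off. Among partners, Cbfb, the non-DNA-binding subunit shared by the RUNX proteins, had group means of 123, 120 and 102 TPM (untreated, LPS, Met + LPS). Those of the LYL1 partner Lmo2 were 257, 120 and 190 TPM. Their direction in Met + LPS vs. untreated depended on the scaling. The log2 fold change was -0.27 for Cbfb as deposited and 0.26 after rescaling, and both passed. For Lmo2 it was -0.43 and 0.11. The paralogue Runx2 was at 1.91, 4.77 and 7.45 TPM, above Runx3 in each group, and of the other IKAROS genes only Ikzf5 passed the filter (1.15 to 1.69 TPM).

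**Figure D4:**
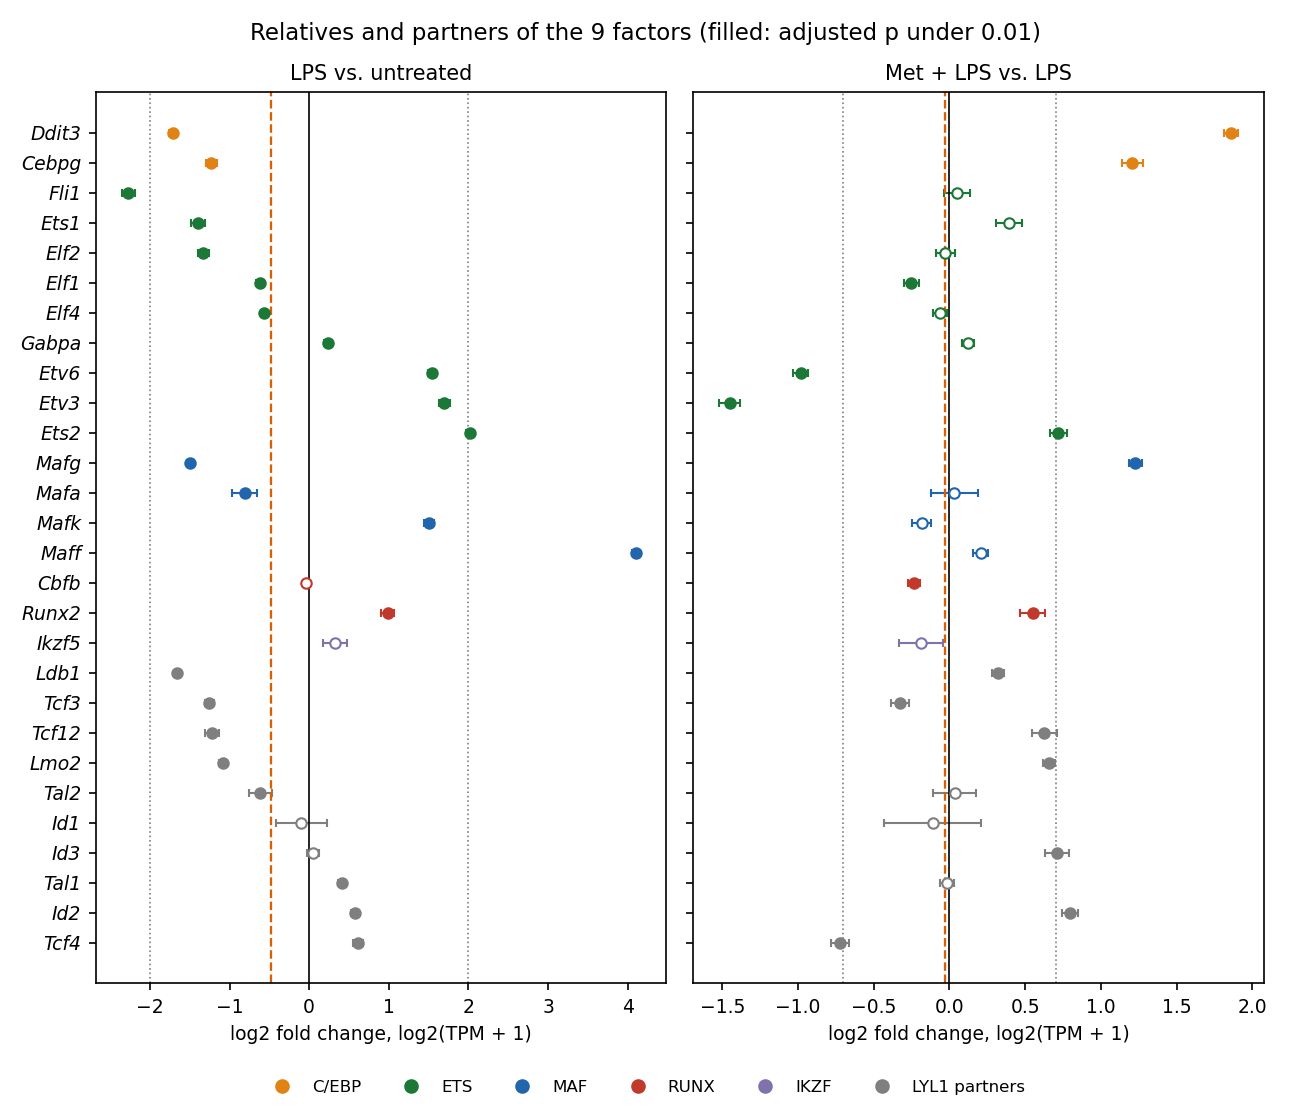
Log2 fold changes on the log2(TPM + 1) scale (horizontal axes) of relatives and partners that passed the filter, ordered by family, with standard errors as bars. Filled points have an adjusted p under 0.01, dotted lines are the cut-offs and dashed lines the median of all tested genes. Maff has the highest and Fli1 the lowest value plotted for LPS vs. untreated, and Ddit3, Mafg and Cebpg have the highest values in Met + LPS vs. LPS.

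Another list held 21 transcription factors of monocytes, macrophages, granulocytes and dendritic cells, of which 18 passed the filter. After LPS 7 were higher and 9 lower, and 8 and 7 after rescaling, where all tested genes gave 16.2% higher and 60.1% lower as deposited and 30.6% and 27.6% rescaled. Gfi1 and Zbtb46, both counted as higher, were under 1 TPM in the untreated libraries and passed the filter only through stimulated ones. For Zbtb46 these were the LPS libraries alone (1.53 and 1.14 TPM). Such a filter selects genes that rose, so these increases say nothing about the list. Tfec (11.4 to 170 TPM, log2 fold change 3.79), Gfi1 (0.275 to 6.01 TPM, 2.45) and Mitf (36.7 to 186 TPM, 2.31) were higher past the cut-off, and Bhlhe41 (67.8 to 8.96 TPM, -2.79) and Hhex (14.6 to 1.68 TPM, -2.54) were lower. Mitf and Tfec encode factors of the same subfamily. In Met + LPS vs. LPS 6 were higher and 4 lower, against 14.5% and 18% of all tested genes. Bhlhe41 (2.00), Bhlhe40 (1.63), Pparg (1.17) and Mef2d (0.76) were higher past the cut-off, and Irf8 (236 to 128 TPM, -0.87), a partner of PU.1, and Batf3 (3.87 to 1.73 TPM, -0.84) were lower.

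Genes known to be driven by these factors were counted in 2 lists. The first held 14 textbook targets of PU.1 and C/EBP in myeloid cells, such as Csf1r, the receptor for the growth factor M-CSF and a target of PU.1 and RUNX1, and all 14 passed the filter. After LPS 4 were higher and 9 lower, but 7 were higher and 1 lower after rescaling by the median gene, so that the direction of this list depended on the scaling. The same holds for all tested genes, of which 16.2% were higher and 60.1% lower as deposited and 30.6% higher and 27.6% lower after rescaling. Csf1r itself was at 1891, 1325 and 1259 TPM in the group means. Its log2 fold change in LPS vs. untreated was -0.51 as deposited and 0.01 after rescaling, where it did not pass (adjusted p = 0.772 in limma). In Met + LPS vs. LPS none was higher and 7 were lower under both scalings (all tested genes 14.5% and 18% as deposited, 15.6% and 17.4% rescaled), with Fcgr1 alone past the cut-off (165 to 74.4 TPM, log2 fold change -1.14). The second held 12 inflammatory and acute-phase genes under control of C/EBPβ, C/EBPδ or c-MAF, of which 9 passed the filter. Csf3, Hp and Arg1 did not. Those that reached 1 TPM in both untreated libraries were Il1b (3.47 to 3074 TPM in the means of untreated and LPS, log2 fold change 9.44), Il10 (4.34 to 160.5 TPM, 4.92) and Cd40 (5.56 to 703 TPM, 6.75). The 6 others, Il6, Il12b, Ptgs2, Nos2, Saa3 and Lcn2, had untreated means of 0.0773 to 0.850 TPM and LPS means of 3.94 to 645 TPM. They passed the filter only through the stimulated libraries, which selects genes that rose, and their increases are not counted. In Met + LPS vs. LPS 6 of the 9 were lower past the cut-off, against 4.09% of all tested genes, among them Nos2 (-1.40), Saa3 (-1.42) and Il10 (-1.25), while Il6 (0.17, adjusted p = 0.0889), Il12b (0.01, adjusted p = 0.875) and Ptgs2 (0.11, adjusted p = 0.48) did not pass. The paper reports that metformin reduced most of the metformin-sensitive genes that LPS had raised. All tested genes are therefore not a like background for this list, and a link to these factors was not tested.

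Several members are also transcribed in progenitors and granulocytes, whose markers were present at low levels. The 5 stem or progenitor markers summed to 27.0 to 28.9 TPM in untreated libraries, 12.6 to 13.5 TPM after LPS and 30.2 to 32.3 TPM in Met + LPS. Most of this was Kit, whereas Cd34 and Myb stayed under 1 TPM. Their sum was lowest in the LPS libraries, as were Cebpa, Lyl1, Runx1 and Runx3, but it was higher in Met + LPS than in untreated libraries, unlike Cebpa, Lyl1 and Runx1. The 8 neutrophil markers summed to 30.0 to 32.8, 26.7 to 28.2 and 43.6 to 45.9 TPM, with Elane at up to 17.4 TPM and Ly6g at 0 in 5 libraries. The 9 macrophage markers summed to 44759 to 46739 TPM in untreated libraries, 37424 to 37915 TPM after LPS and 30890 to 30960 TPM in Met + LPS, without overlap. Most of this was Lyz2, whose log2 fold change in LPS vs. untreated was -0.38 as deposited and 0.15 after rescaling. Csf1r and Cd68 were also lower after LPS as deposited, whereas Cd14 and Adgre1 were higher. After rescaling, the log2 fold change was 0.01 for Csf1r and 0.19 for Cd68, which then passed as higher (adjusted p = 0.00766 in limma). The sum therefore does not stand for each marker. Of lymphocyte markers, Cd3g and Prf1 were at 0 throughout and Lck reached 12.3 TPM. The part of these cells in the results was not tested, and in bulk RNA fewer cells of a type and less RNA per cell cannot be told apart.

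Genes with a course like that of each member were searched among the other tested genes by the Euclidean distance of their log2(TPM + 1) values, less the untreated mean, over the 6 libraries. Near Cebpa were Trp53inp1 (distance 0.44) and 1700017B05Rik (0.50). Nearest to Lyl1 were Cnr2 (0.68), Gm11699 (0.71) and Sesn1 (0.77), and these are wider gaps than for any other member. Cebpd had Zeb1 (0.18), Plekhf1 (0.36) and Il4ra (0.42), and Ikzf1 had Mmp25 (0.19), Sphk1 (0.24) and Serpina3g (0.27). Those near Ikzf1 had untreated means of 0.195 to 0.512 TPM and passed the filter through stimulated libraries, which selects genes that rose. After LPS, Cnr2 and Gm11699 had means of 0.252 and 0.164 TPM. The log2(TPM + 1) scale shrinks changes at such levels, so a small distance there does not mean a like fold change in TPM. Spi1 was closest to Phip, Ppp1r18 and Lrp10 (0.09 to 0.11), Maf to Tvp23b, Tpcn1 and Ccr2 (0.11 to 0.16), and Runx1 to Ccdc127, Taf4 and Slbp (0.06 to 0.10). For Cebpb they were Gm36638, Gm15625 and Slc16a1 (0.14 to 0.19), both Gm genes being listed at low levels, and for Runx3 Scpep1, Polr1c and Tollip (0.06 to 0.09). Among the members themselves the most alike pair was Cebpd and Ikzf1 (0.73), and Lyl1 and Ikzf1 were the furthest apart (12.5).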

How the data were processed

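RNA-seq of 6 libraries in 3 groups of 2 was analysed. The authors deposited TPM values per gene, without pooling. Per the submitters' processing notes and the methods, single-end reads from poly-A-enriched libraries were mapped to GRCm38 by STAR 2.6.1d and counted with featureCounts of Subread 1.6.3, with SAMtools 1.9 in between. How counts became TPM, and the strand setting, are not given in the sources used here. No column of sample values was left unused (0).

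Groups came from the sample labels. Genes that reached 1 TPM in 2 or more libraries were tested with limma 3.58.1 (R 4.3.3) on log2(TPM + 1), all libraries in 1 fit, eBayes with trend, two-sided, Benjamini-Hochberg adjustment and 3 residual degrees of freedom. Cut-offs were an adjusted p under 0.01 and an absolute log2 fold change of 2, or 0.7 for Met + LPS vs. LPS. The scale understates changes of genes with few TPM. TPM times exon length (GENCODE M21) gave whole reads within 0.02 read for 96.9% to 97.2% of the low values. The resulting depth, which covers counting error only, served for voom. The analysis was tested on simulated data. Tables and figures used Python 3.11.15, numpy 2.4.6, pandas 2.3.3 and matplotlib 3.10.9. Exon overlaps came from GENCODE and promoter sequences from RefSeq (GRCm38.p6).

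Alternatives were a pseudocount of 0.1, no filter, at least 5 TPM, rescaling of libraries by the median ratio, the compared groups alone, a replicate block, eBayes without trend, an adjusted p under 0.05 and leaving out each library in turn. Voom on recovered reads, voom with rescaling, separate LPS libraries for the 2 comparisons that share them, and rescaled list counts were chosen after seeing the data. Named genes are the 9 members, list genes past a fold-change cut-off with at most 3 others per list, and the 3 nearest genes of each member. A few of these are not reported here. The members and lists were chosen with earlier results of these data known.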

Additional observations from a re-analysis of the deposited data

How the results depend on the processing

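Of 402 log2 fold changes of the 9 genes recomputed under the alternatives, 379 kept their direction and their side of the threshold, 14 newly passed, 7 no longer passed and 2 reversed. Both reversals were Spi1 in Met + LPS vs. untreated, which was -0.15 in TPM as deposited, 0.3917 after rescaling by the median ratio and 0.3925 with voom and the same rescaling. The part of its LPS change left after metformin was accordingly -38.9% as deposited and 43.21% after rescaling. The number of members passing the test stayed at 8 in LPS vs. untreated when each library was left out, and lay between 6 and 7 in Met + LPS vs. LPS and between 6 and 8 in Met + LPS vs. untreated. The number past the fold-change cut-off was 4, 3 to 4, and 2 in the same order. Differences between A and B correlated with an r of -0.004 to 0.028 between groups (Spearman 0.019 to 0.077). This cannot settle whether the letters mark paired cultures, since noise between libraries can hide a shared difference. With the replicate block the members passing were 8, 7 and 8, the addition in Met + LPS vs. LPS being Cebpb (adjusted p = 0.00609 in limma). Voom on recovered reads passed all 9 members in Met + LPS vs. LPS, among them Runx3, which had entered only through its Met + LPS libraries. With LPS library A compared with untreated and LPS library B with Met + LPS, or the reverse, every log2 fold change of the 9 genes kept its sign. Depth limits Runx3 most, with 21 reads in each LPS library, and 2 libraries per group limit every comparison.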
